A study of Mus musculus with 4 samples.

Results

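Neurexins are presynaptic adhesion proteins, and neuroligins and the leucine-rich repeat transmembrane (LRRTM) proteins are postsynaptic proteins that bind them across the synaptic cleft. Cerebellins are secreted proteins that bridge neurexins to postsynaptic receptors such as the one encoded by *Grid1*. Through these contacts the families take part in forming and specifying excitatory and inhibitory synapses, and many of their transcripts are already made by young neurons before synapses mature. The 9 genes described here are the neurexins *Nrxn2* and *Nrxn3*, the neuroligins *Nlgn1*, *Nlgn2* and *Nlgn3*, *Lrrtm1*, *Lrrtm3* and *Lrrtm4*, and the cerebellin *Cbln2*. They were chosen by their gene symbol, 9 of the 56884 genes in the count matrices, and other members of the families were not analysed here.

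Nuclei came from the medial neocortex of mouse embryos at stage E16.5 and were profiled by single-nucleus RNA sequencing. The Dnmt1 KO group (genotype Sst-Cre/tdTomato/Dnmt1 loxP2) and the Control group (Sst-Cre/tdTomato) had 2 libraries each. Both groups carried the *Sst-Cre* driver and the tdTomato reporter, and the KO group in addition carried the loxP-flanked *Dnmt1* allele, which is recombined only in cells that express *Sst*. Gene counts as used here do not separate recombined nuclei from the rest of their class. Nothing in the labels ties a library to more than 1 brain, and p-values of comparisons by genotype measure the spread between these 4 libraries. Contrasts between classes were fitted with library as a term. Their p-values therefore measure how far differences between classes vary from library to library, pooled over the classes fitted together. Control replicate 2 was the only library of batch 2, so batch and that library cannot be told apart.

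Of 1127729 barcodes, 29656 with 1500 to 60000 transcripts were retained, between 4905 and 12064 per library, and the median per nucleus lay between 12274 and 12401 transcripts in the 3 libraries of batch 1 and at 21140 in Control replicate 2. Barcodes over 60000 transcripts, which were left out, held 1.35% and 4.37% of transcripts in the KO and 19.2% and 29.4% in the Control libraries. The upper limit thus fell unequally on the genotypes, and its effect was not tested. Control replicate 2 also had 2 sublibraries, against 8 in each library of batch 1. No barcode was shared between libraries. *Dnmt1* itself stood at 58.6 and 48.2 CPM (counts per 1e6 transcripts of the summed nuclei) in the KO libraries and 61.9 and 53.0 CPM in the Control libraries in interneuron-like nuclei of medial ganglionic eminence (MGE) type, so the groups overlapped. In nuclei with both *Sst* and *Gad2* transcripts it was 76.1 and 46.1 CPM against 81.2 and 66.5 CPM. Nuclei gated as striatal-like numbered 222 in Control replicate 1 and 3, 33 and 1 in the others. Meningeal-like nuclei numbered 260 in Dnmt1 KO replicate 2 and 1, 1 and 4 in the others, and choroid-plexus-like nuclei 157 against 12, 9 and 7. Upper-layer-like nuclei made up 4.38% and 9.49% of the KO and 11.7% and 19.9% of the Control libraries. Hippocampal-granule-lineage-like nuclei made up 12.4% and 7.68% of the KO and 4.37% and 3.26% of the Control libraries. Replicates 1 of both groups had high *Xist* and replicates 2 high *Uty*, so each group held 1 library of each sex.

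Classes were gated on fixed marker lists, none of which holds any of the 9 genes, and are called "-like" for that reason. Gating named 64.3% of the retained nuclei. Summed CPM of the GABAergic markers was 3151 in MGE-interneuron-like nuclei and 5486 in nuclei like interneurons of the caudal ganglionic eminence (CGE), against 39.2 in upper-layer-like and 34.4 in deep-layer-like nuclei. The MGE interneuron list by itself did not separate classes, at 3597 in MGE-interneuron-like, 3696 in radial-glia-like and 2950 in IPC-like nuclei, against 640.2 in CGE-interneuron-like nuclei, so the MGE gate rests on at least 2 GABAergic markers as well. Levels are given for 11 classes with at least 20 nuclei in every library. Values over 4 libraries stand in the order Dnmt1 KO replicate 1, Dnmt1 KO replicate 2, Control replicate 1 and Control replicate 2. The test throughout was the quasi-likelihood test of edgeR, on counts summed per library and class, with Benjamini-Hochberg adjustment over all genes tested, and a gene is said to differ where the adjusted p was under 0.05.

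*Nrxn3* had the largest log2 difference of the 9 genes in the 5 contrasts between classes. The gene covers 1612 kb of chromosome 12 (GRCm39, 88689646 to 90301709, plus strand), and its products are cut into many isoforms that gene counts cannot separate. In MGE-interneuron-like nuclei it had 34497, 31483, 34393 and 32960 CPM, a mean of 3.33% of all transcripts, and in CGE-interneuron-like nuclei 33333, 33264, 36761 and 34703 CPM. Deep-layer-like nuclei held 199.7, 371, 517 and 158 CPM, and upper-layer-like nuclei 107, 348, 327 and 307 CPM. The 2 interneuron classes lay above the other 9 of the 11 classes in every library, and their ranges overlapped each other. Striatal-like nuclei, too few for a level in 2 libraries, held a *Nrxn3* transcript in 100.0% of nuclei. Against the excitatory mean, which averages the deep-layer-like and upper-layer-like classes, *Nrxn3* was higher in MGE-interneuron-like nuclei by 6.89 on the log2 scale (SE 0.26, edgeR adjusted p = 1.36e-13), which is 118-fold. How much of the excitatory level in this ratio is background was not tested. The log2 difference was 8.04 with doublets left out and also 8.04 in clustered classes, so the fold has no firm size. At least 1 *Nrxn3* transcript was found in 100.0% of MGE-interneuron-like nuclei in all 4 libraries.

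**Figure D1:**
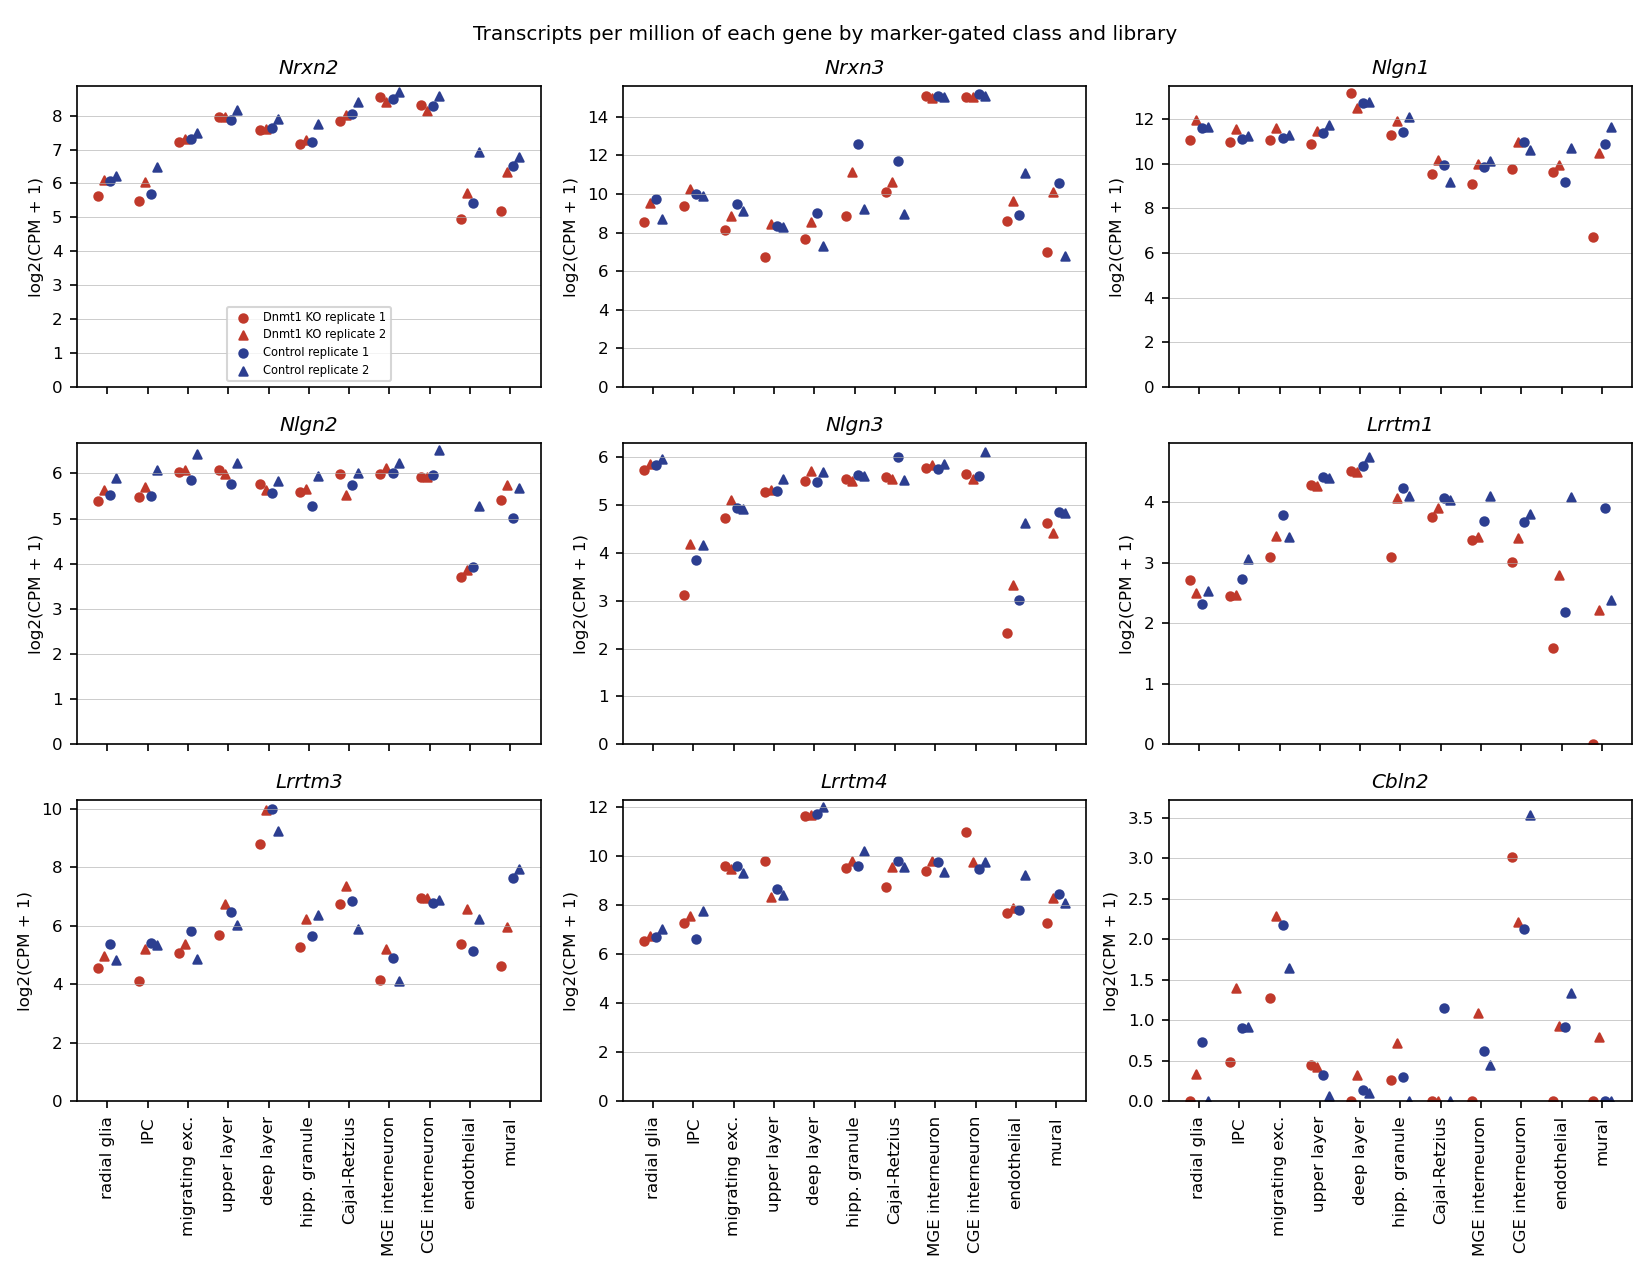
Level of each gene, as log2(CPM + 1) on the vertical axis, in 11 marker-gated classes, with 1 point per library (red Dnmt1 KO, blue Control, circles replicate 1, triangles replicate 2). *Nrxn3* stands at 31483 CPM or more in the MGE and CGE interneuron classes only, *Nlgn1*, *Lrrtm3* and *Lrrtm4* peak in the deep-layer class, and *Nlgn3* is lowest among the neural classes in intermediate progenitors.

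Low *Nrxn3* values need a scale for loose RNA. Barcodes under 100 transcripts, which hold few or no nuclei, had 3430, 3875, 4951 and 2317 CPM of *Nrxn3*, above the level in both excitatory classes, and leaving out nuclei called as doublets lowered *Nrxn3* in deep-layer-like nuclei to 86.1, 159, 266 and 90.1 CPM. Thinned to 1500 transcripts a nucleus, 11% to 13.8% of deep-layer-like and 8.84% to 15% of upper-layer-like nuclei kept a *Nrxn3* transcript, against 98.8% or more of both interneuron classes. Endothelial-like nuclei, a non-neural class, stood at 388, 806, 473 and 2159 CPM, and 20.2% to 32.2% of them kept a transcript at that depth. The median transcripts per nucleus ran from 11366 to 22959 in endothelial-like and from 17489 to 29855 in deep-layer-like nuclei. The excitatory shares lay below the endothelial-like ones, and the part of loose RNA in either was not tested. Radial-glia-like nuclei had 371, 752, 864 and 423 CPM and intermediate-progenitor-like (IPC-like) nuclei 657, 1211, 1009 and 949.5 CPM, which overlaps the range in endothelial-like nuclei. *Nrxn3* was lower in upper-layer-like than radial-glia-like nuclei by −0.74 (SE 0.28, edgeR adjusted p = 0.025) and higher in IPC-like than radial-glia-like nuclei by 0.71 (SE 0.28, edgeR adjusted p = 0.047). With doublets left out the first was −1.41 and in clustered classes −1.84. The first call was lost without Dnmt1 KO replicate 1, Dnmt1 KO replicate 2 or Control replicate 1 (−0.62, −0.74 and −0.71), and the second without Dnmt1 KO replicate 1, Dnmt1 KO replicate 2 or Control replicate 2 (0.66, 0.72 and 0.57), with doublets left out (0.50) and in clustered classes, where it turned to −0.05.

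*Nrxn2*, the other neurexin (chromosome 19, 6468761 to 6594199, plus strand, 125 kb), had its highest means in the neuronal classes. It had 373, 335, 358 and 410.5 CPM in MGE-interneuron-like nuclei, 247, 246, 233 and 286 CPM in upper-layer-like nuclei and 189.9, 195, 199 and 240.1 CPM in deep-layer-like nuclei. Radial-glia-like nuclei held 48.3, 68.0, 65.6 and 73.4 CPM and IPC-like nuclei 43.8, 65.1, 50.4 and 87.9 CPM. All 7 neuronal and hippocampal-granule-lineage classes lay above the progenitor, endothelial-like and mural-like classes without overlap between migrating-excitatory-like nuclei, at 160.6 ± 11.4 CPM (SD, n = 4), and the next class. Upper-layer-like nuclei exceeded radial-glia-like nuclei by 2.38 (SE 0.11, edgeR adjusted p = 7.12e-15), and MGE-interneuron-like nuclei exceeded the excitatory mean by 0.62 (SE 0.09, edgeR adjusted p = 2.83e-06). IPC-like and radial-glia-like nuclei were not told apart, with a 95% interval of the log2 difference from −0.28 to 0.15. *Nrxn2* had 134, 156, 150.2 and 261 CPM in barcodes under 100 transcripts. The MGE, CGE, Cajal-Retzius-like and upper-layer-like levels lay above this in every library, the deep-layer-like level in all but Control replicate 2, and the radial-glia-like and IPC-like levels in none.

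Among the neuroligins, *Nlgn1*, known mainly from excitatory synapses, ran opposite to *Nrxn3* between the excitatory and MGE-interneuron-like classes. Low *Nlgn1* was not limited to interneurons: Cajal-Retzius-like and endothelial-like nuclei, at means of 859 and 999 CPM, overlapped the MGE-interneuron-like range. The gene covers 906 kb of chromosome 3 (25480379 to 26386609, minus strand). Deep-layer-like nuclei had 9093, 5763, 6718 and 7024 CPM, radial-glia-like nuclei 2124, 3922, 3094 and 3183 CPM, and upper-layer-like nuclei 1889.7, 2807, 2656 and 3399 CPM. MGE-interneuron-like nuclei had 548, 1016, 915 and 1096 CPM, so every excitatory library lay above every MGE library. The difference was −2.42 (SE 0.21, edgeR adjusted p = 1.83e-08) for MGE-interneuron-like against excitatory nuclei and −1.67 (SE 0.22, edgeR adjusted p = 5.59e-06) for upper-layer-like against deep-layer-like nuclei. CGE-interneuron-like nuclei had 873, 1988, 1982 and 1554 CPM, and MGE nuclei were lower by −0.79 (SE 0.22, edgeR adjusted p = 0.021), a call lost without Dnmt1 KO replicate 2, Control replicate 1 or Control replicate 2 (−0.73, −0.68 and −0.89) and in clustered classes (−0.08). Barcodes under 100 transcripts held 4097, 4089, 3844 and 3966 CPM of *Nlgn1*, above both interneuron classes and the upper-layer-like, radial-glia-like, migrating-excitatory-like and IPC-like nuclei in every library, and below deep-layer-like nuclei. How much loose RNA adds to these classes was not tested, and the MGE level with doublets left out was 399, 829, 581 and 579 CPM, which made the difference from excitatory nuclei −3.03. With gene-span offsets the upper-layer-like against deep-layer-like difference was −0.93.

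**Figure D2:**
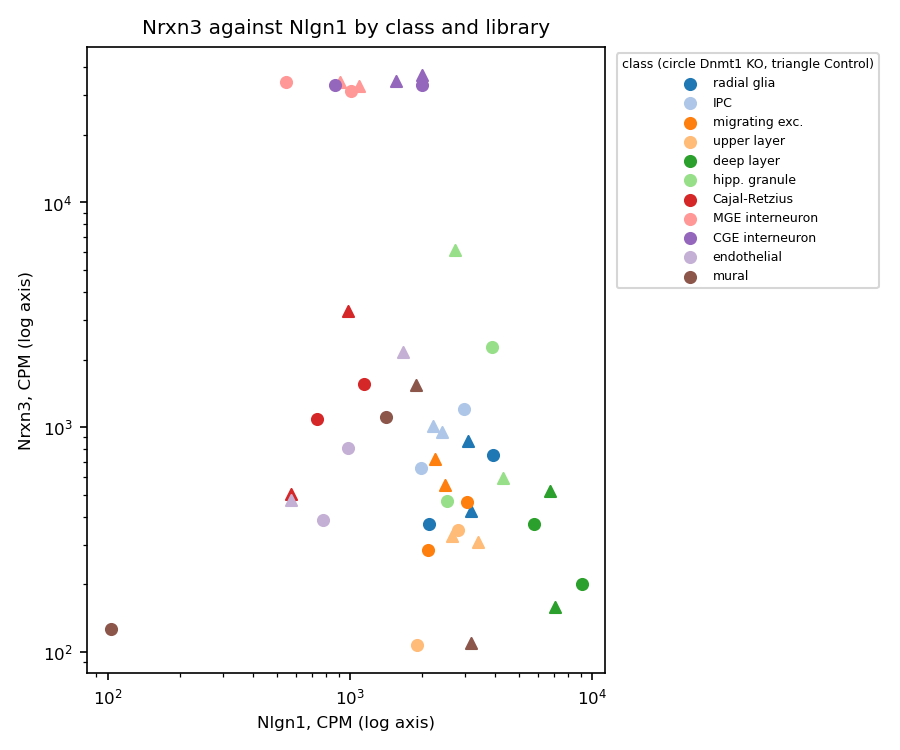
*Nrxn3* CPM (vertical, log axis) against *Nlgn1* CPM (horizontal, log axis), with 1 point per class and library and colours for classes. The 8 interneuron points sit at the top with *Nlgn1* from 548 to 1988 CPM, and the 4 deep-layer points at the lower right with *Nlgn1* from 5763 to 9093 CPM.

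*Nlgn2*, a neuroligin of inhibitory synapses (chromosome 11, 69713948 to 69728613, minus strand, 14.7 kb), was the most even. Its class means ran from 43.9 CPM in mural-like to 68.1 CPM in migrating-excitatory-like nuclei, apart from endothelial-like nuclei at 19.3 ± 12.2 CPM (SD, n = 4), and each class overlapped its neighbour in rank. MGE-interneuron-like nuclei had 62.2, 68.2, 63.1 and 74.6 CPM and radial-glia-like nuclei 40.9, 48.6, 44.9 and 58.9 CPM. Levels in barcodes under 100 transcripts, at 33.0, 44.1, 38.8 and 90.6 CPM, lay below both classes in the 3 libraries of batch 1 and above both in Control replicate 2. Of the 5 contrasts between classes, only upper-layer-like against radial-glia-like nuclei passed the test, at 0.80 (SE 0.08, edgeR adjusted p = 1.18e-08). With scaling by total counts, upper-layer-like against deep-layer-like nuclei passed as well, at 0.31, against 0.13 with the usual scaling. For MGE-interneuron-like against excitatory nuclei the log2 difference was 0.16 (95% interval 0.02 to 0.30) and the adjusted p 0.087 by edgeR, and the test was passed with scaling by total counts (0.24) and gene-span offsets (0.24).

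*Nlgn3*, a neuroligin found at both kinds of synapse (chromosome X, 100342750 to 100369570, plus strand, 26.8 kb), was marked by a dip in intermediate progenitors. IPC-like nuclei had 7.70, 17.2, 13.5 and 16.8 CPM, while radial-glia-like nuclei had 52.2, 56.9, 56.0 and 60.9 CPM. Migrating-excitatory-like nuclei were in between, with 25.6, 33.2, 29.7 and 29.2 CPM, and upper-layer-like nuclei had 37.7, 38.6, 38.4 and 45.3 CPM. IPC-like nuclei thus lay below each of these 3 classes in all 4 libraries. *Nlgn3* had 37.4, 43.2, 39.0 and 50.2 CPM in barcodes under 100 transcripts. This was below radial-glia-like nuclei and above IPC-like and migrating-excitatory-like nuclei in every library. It was above upper-layer-like nuclei in all but Dnmt1 KO replicate 1. How much loose RNA adds to these classes was not tested. Against radial-glia-like nuclei the IPC-like level was lower by −2.04 (SE 0.13, edgeR adjusted p = 9.25e-12), a 4.11-fold difference. The share of nuclei with a *Nlgn3* transcript, thinned to 1500 transcripts each, was 1.22% to 2.62% in IPC-like and 6.97% to 8.44% in radial-glia-like nuclei. Smaller differences were found for MGE-interneuron-like against excitatory nuclei, at 0.25 (SE 0.08, edgeR adjusted p = 0.024), and for upper-layer-like against deep-layer-like nuclei, at −0.44 (SE 0.09, edgeR adjusted p = 6.80e-04). The first of these was lost without Dnmt1 KO replicate 2 or Control replicate 1 (0.25 and 0.23), without a filter (0.22) and in clustered classes (0.11). A long noncoding RNA gene on the same strand overlaps 22205 bases of *Nlgn3*, and reads there cannot be assigned with certainty.

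The LRRTM genes had their highest mean, of the 11 classes, in deep-layer-like nuclei. *Lrrtm4*, whose protein binds neurexins and heparan sulfate proteoglycans (chromosome 6, 79995860 to 80787124, plus strand, 791 kb), had 3144, 3277, 3364 and 4078 CPM there. Upper-layer-like nuclei had 884, 319, 406 and 340.3 CPM, with Dnmt1 KO replicate 1 above the other 3 libraries, and MGE-interneuron-like nuclei had 665, 887, 864 and 657 CPM. Radial-glia-like nuclei, at 92.7, 105, 102 and 129 CPM, were the lowest of the 11 classes by mean. Barcodes under 100 transcripts had 1721, 1364, 1467 and 1140 CPM of *Lrrtm4*, above the upper-layer-like, MGE-interneuron-like and radial-glia-like levels in every library and below the deep-layer-like level. Upper-layer-like nuclei were lower than deep-layer-like nuclei by −3.08 (SE 0.33, edgeR adjusted p = 9.66e-07) and higher than radial-glia-like nuclei by 2.50 (SE 0.33, edgeR adjusted p = 2.96e-06). Against the excitatory mean, MGE-interneuron-like nuclei were lower by −0.78 (SE 0.27, edgeR adjusted p = 0.034). That call was lost without Dnmt1 KO replicate 2, Control replicate 1 or Control replicate 2 (−0.95, −0.90 and −0.73) and with scaling by total counts (−0.70). With gene-span offsets the upper-layer-like against deep-layer-like difference was −2.41.

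*Lrrtm3*, another LRRTM gene, was also highest there (chromosome 10, 63763854 to 63926056, minus strand, 162 kb). Deep-layer-like nuclei held 443, 984, 1020.3 and 603 CPM, above the other 10 of the 11 classes in every library. Classes too small for a level also held it: thinned to 1500 transcripts, 17.4% to 60.0% of choroid-plexus-like nuclei (7 to 157 a library) kept a *Lrrtm3* transcript, against 34.5% to 58.3% of deep-layer-like nuclei, and 53.6% of the 38 oligodendrocyte-precursor-like nuclei of Dnmt1 KO replicate 2 did. Upper-layer-like nuclei held 50.1, 106, 88.3 and 64.7 CPM, CGE-interneuron-like nuclei 123, 124, 108 and 116 CPM, and MGE-interneuron-like nuclei 16.7, 36.3, 29.1 and 16.3 CPM. In barcodes under 100 transcripts it was 288, 323, 346 and 168 CPM, above these 3 classes and below deep-layer-like nuclei. *Lrrtm3* was lower in upper-layer-like than deep-layer-like nuclei by −3.46 (SE 0.17, edgeR adjusted p = 1.22e-11) and lower in MGE than CGE nuclei by −2.17 (SE 0.20, edgeR adjusted p = 3.42e-07). It was also lower in MGE-interneuron-like than excitatory nuclei by −3.37 (SE 0.18, edgeR adjusted p = 1.20e-11) and higher in upper-layer-like than radial-glia-like nuclei by 1.71 (SE 0.17, edgeR adjusted p = 5.00e-08). With doublets left out the MGE level was 9.74, 20.6, 14.0 and 7.02 CPM, and the differences became −2.98 from CGE and −4.37 from excitatory nuclei. In clustered classes the upper-layer-like against radial-glia-like difference was 2.49. The gene lies wholly inside *Ctnna3*, an alpha-catenin gene on the opposite strand, and the strand setting of the counting is not given in the sources used here. *Ctnna3* was itself highest in deep-layer-like nuclei, at 83.7, 142, 138 and 106 CPM, so reads of the pair cannot be told apart with certainty, although *Lrrtm3* was the more abundant in the 6 classes compared.

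*Lrrtm1* (chromosome 6, 77218820 to 77235200, plus strand, 16.4 kb) was scarce but graded. It had 21.9, 21.7, 23.3 and 25.8 CPM in deep-layer-like, 18.5, 18.4, 20.3 and 20.1 CPM in upper-layer-like and 9.35, 9.81, 11.9 and 16.3 CPM in MGE-interneuron-like nuclei. Radial-glia-like nuclei held 5.57, 4.67, 3.98 and 4.80 CPM and IPC-like nuclei 4.46, 4.504, 5.65 and 7.37 CPM. The deep-layer, upper-layer and next class in rank did not overlap. *Lrrtm1* had 12.2, 17.1, 16.49 and 22.2 CPM in barcodes under 100 transcripts. This was above the MGE-interneuron-like, radial-glia-like and IPC-like levels and below the deep-layer-like level in every library. The upper-layer-like level lay above it in all but Control replicate 2. All retained nuclei together held 13.5, 16.2, 17.4 and 19.9 CPM, near the level of these barcodes. How much loose RNA adds to each class was not tested, so the sizes of the differences below are not firm. The upper-layer-like level exceeded the radial-glia-like level by 2.41 (SE 0.13, edgeR adjusted p = 1.02e-13) and was lower than the deep-layer-like level by −0.44 (SE 0.10, edgeR adjusted p = 8.36e-04). MGE-interneuron-like nuclei were lower than excitatory nuclei by −0.91 (SE 0.10, edgeR adjusted p = 1.68e-07). *Lrrtm1* lies wholly inside *Ctnna2* on the opposite strand. *Ctnna2* was far more abundant, at 6263 ± 209 CPM (SD, n = 4) in deep-layer-like and 6243 ± 256 CPM in MGE-interneuron-like nuclei, and reads of the pair cannot be told apart with certainty.

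*Cbln2*, the secreted neurexin ligand (chromosome 18, 86729008 to 86738347, plus strand, 9.34 kb), was near the floor, with 27, 144, 111 and 52 transcripts over all retained nuclei of a library. It was highest in CGE-interneuron-like nuclei, with 7.04, 3.62, 3.36 and 10.6 CPM from 2, 9, 6 and 13 transcripts, and next in migrating-excitatory-like nuclei, with 1.43, 3.88, 3.50 and 2.14 CPM. MGE-interneuron-like nuclei had 0, 1.13, 0.54 and 0.37 CPM. The CGE level lay above the MGE level in all 4 libraries, and the difference, MGE minus CGE, was −3.02 (SE 0.65, edgeR adjusted p = 0.0026). It was −3.63 with DESeq2, −4.02 without Dnmt1 KO replicate 2 and −2.25 without Control replicate 2. Against excitatory nuclei the MGE level was higher by 1.82 (SE 0.70, edgeR adjusted p = 0.045), on 0, 9, 3 and 2 transcripts. Barcodes under 100 transcripts had 1.95, 0.92, 2.55 and 0.95 CPM, above the MGE level in 3 of 4 libraries. The part of loose RNA in the MGE level was not tested. That call was lost with DESeq2 (1.78), with doublets left out (1.85) and without Dnmt1 KO replicate 2, Control replicate 1 or Control replicate 2 (1.72, 1.90 and 1.63).

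**Figure D3:**
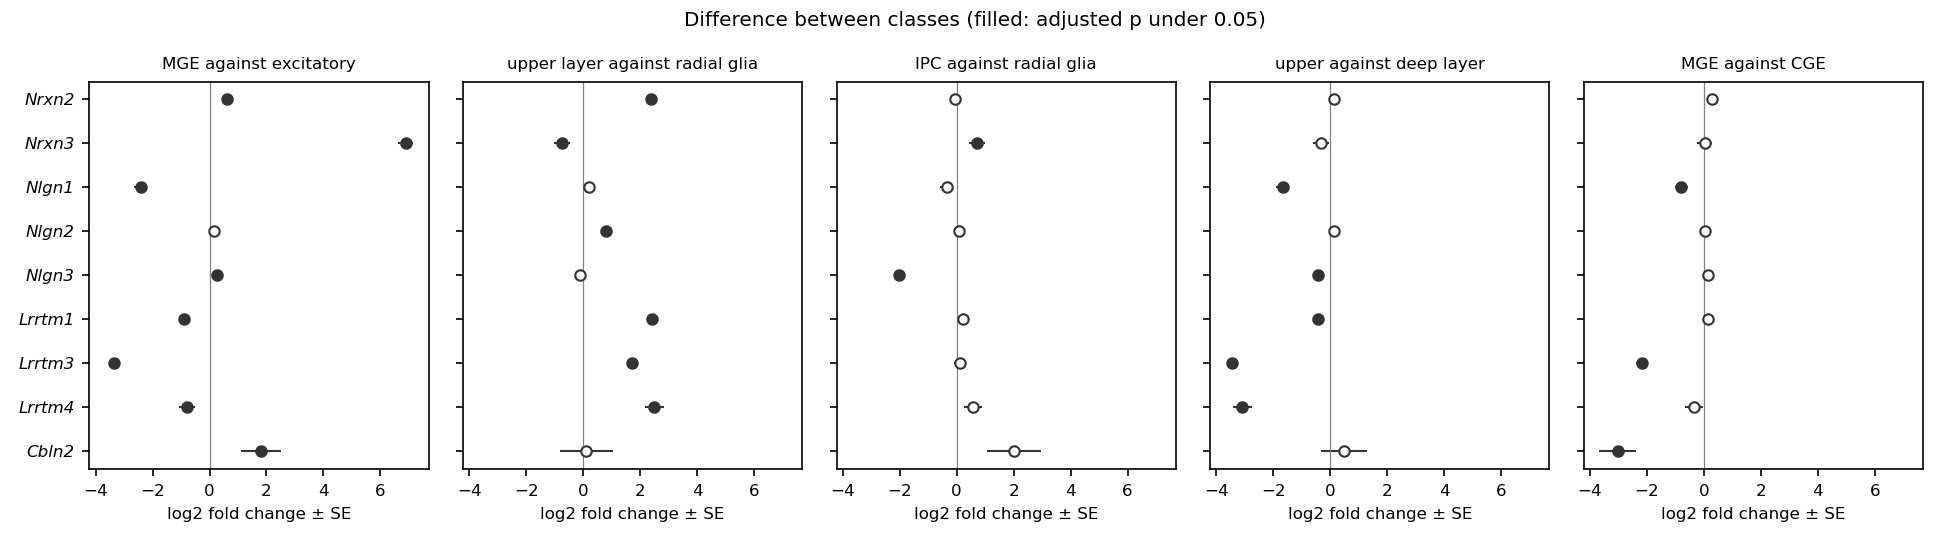
Log2 fold change ± SE of each gene (horizontal axis) in 5 contrasts between classes, with filled points where the edgeR adjusted p was under 0.05. *Nrxn3* at 6.89 in the MGE against excitatory panel and *Nlgn3* at −2.04 in the IPC against radial glia panel stand out, and in the upper against deep layer panel the 5 filled points all lie below 0.

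Counted by contrast, 4 of the 9 genes were higher and 4 lower in MGE-interneuron-like than excitatory nuclei, where 17.4% of the 14756 genes tested were higher and 19.0% lower. Upper-layer-like against radial-glia-like nuclei gave 5 higher and 1 lower, against 32.3% and 36.0% of all genes. With scaling by total counts *Nlgn3* also passed the test as lower there, at −0.51. For IPC-like against radial-glia-like nuclei 1 was higher and 1 lower, against 18.7% and 23.6%. The upper-layer-like against deep-layer-like contrast gave 0 higher and 5 lower, against 16.9% and 20.5%. That split depended on scaling. With total counts *Nrxn2* (0.30) and *Nlgn2* (0.31) passed as higher in it, and with gene-span offsets *Nrxn2* (0.38) did. Between MGE and CGE nuclei 0 were higher and 3 lower, against 5.90% and 6.51%. The median log2 difference of the 9 genes was 0.16, 0.80, 0.11, −0.44 and 0.03 in these contrasts in turn, and that of all genes −0.02, −0.04, −0.04, 0.01 and 0.02.

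The choice of scaling moved whole contrasts. With scaling by total counts, the median of all genes became −0.44 for upper-layer-like against radial-glia-like and 0.18 for upper-layer-like against deep-layer-like nuclei. The share of calls that were higher went from 47.3% to 26.6% in the first and from 45.2% to 68.2% in the second, and from 47.8% to 58.9% for MGE-interneuron-like against excitatory nuclei. With offsets for gene span it went to 57.8%, 61.3%, 59.5% and 34.9% for upper-layer-like against radial-glia-like, upper-layer-like against deep-layer-like, IPC-like against radial-glia-like and MGE against CGE nuclei. The IPC-like and MGE against CGE shares were 44.3% and 47.5% with the usual scaling. Directions given above for *Nrxn2*, *Nrxn3*, *Nlgn1*, *Lrrtm1*, *Lrrtm3* and *Lrrtm4* held under both scalings, and at 0.40 and 0.99 so did that of *Nlgn2* in upper-layer-like against radial-glia-like nuclei.

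Levels of different genes were set beside each other per length, here per 100 kb of gene span. Whether counts scale with length was not tested, so the order of genes below depends on that choice. In MGE-interneuron-like nuclei the mean was 2068 CPM per 100 kb for *Nrxn3*, 457 for *Nlgn2*, 294 for *Nrxn2* and 204 for *Nlgn3*. The remaining genes there were *Nlgn1* at 98.6, *Lrrtm4* at 97.1, *Lrrtm1* at 72.4, *Lrrtm3* at 15.2 and *Cbln2* at 5.46 CPM per 100 kb. Deep-layer-like nuclei had a different order, with *Nlgn1* first at 789 CPM per 100 kb, then *Lrrtm3* at 470.2, *Lrrtm4* at 438, *Nlgn2* at 348 and *Nlgn3* at 178, and *Nrxn3* at 19.3. Span serves as length only where introns were counted, which the sources used here do not give. Per kb of merged exon, *Lrrtm4* at 564 CPM passed *Nlgn1* at 507 in deep-layer-like nuclei. On that scale *Nlgn2*, at 10.9 in MGE-interneuron-like nuclei, fell behind *Lrrtm4* at 125, *Nlgn1* at 63.3 and *Nrxn2* at 26.7, while *Nrxn3* was first there on both scales.

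Patterns most like each gene were sought over the means of the 11 classes, as Pearson's r of log2(CPM + 1), which is a description because the classes share libraries. *Nrxn3* was most like *Dlx1as* (r = 0.989), *Gad2* (0.987) and *Erbb4* (0.986), of which *Gad2* was a gating marker. *Nrxn2* was most like the synaptic adhesion gene *Clstn3* (r = 0.980), *Aldh1l2* (0.977) and the presynaptic scaffold gene *Rims1* (0.975). *Lrrtm3* was closest to *Caln1* (r = 0.978), *B3galt2* (0.936) and *Htr1f* (0.918), and *Lrrtm4* to *Nyap2* (0.956), *Tmem63c* (0.938) and the deep-layer marker *Bcl11b* (0.937), which was used in gating. For *Lrrtm1* the closest were *Gm960* (r = 0.974), *Rps6kl1* (0.947) and *Usp29* (0.939). *Nlgn2* was closest to *Lmbrd2* (r = 0.977) and *Cirbp* (0.944), and *Nlgn3* to *Gnptab* (0.930), *Abca2* (0.910) and *Myo16* (0.909). The weakest likenesses were those of *Nlgn1*, to *Ssbp3* (r = 0.889), *Alcam* (0.888) and *Rab23* (0.885), and of *Cbln2*, to *Unc45a* (0.802), the gating marker *Htr3a* (0.775) and *Rnf214* (0.770). Among the 9 genes, *Lrrtm1* and *Lrrtm4* were most alike (r = 0.850) and *Nrxn3* and *Nlgn1* the least (r = −0.534).

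A list of 35 further partners (neurexophilins, TAFA and C1q-like ligands, postsynaptic receptors, latrophilins, MDGA proteins and scaffolds) and of 12 genes of the parallel system of LAR-type receptor phosphatases and their ligands was set beside these genes. For MGE-interneuron-like against excitatory nuclei, 12 of the 29 partners tested were higher and 10 lower, beside 17.4% and 19.0% of all genes. The neurexophilins, which bind alpha-neurexins, stood at both ends. *Nxph1* had 9547, 9123, 9039 and 7728 CPM in MGE-interneuron-like and 44.4, 62.5, 55.4 and 17.8 CPM in deep-layer-like nuclei, a log2 difference from the excitatory mean of 7.65 (SE 0.64, edgeR adjusted p = 5.54e-08). *Nxph2* had 484, 464, 416 and 389 CPM against 2.14, 2.46, 2.06 and 0.58 CPM, a difference of 7.50 (SE 0.33, edgeR adjusted p = 1.56e-11). *Nxph3* and *Nxph4* were lower in MGE nuclei than the excitatory mean, by −2.24 (SE 0.29, edgeR adjusted p = 1.10e-06) and −2.75 (SE 0.49, edgeR adjusted p = 7.56e-05). *Nxph3* had means of 0.65 CPM in MGE-interneuron-like, 0.47 CPM in upper-layer-like and 21.3 CPM in deep-layer-like nuclei. Its MGE level was thus below the deep-layer-like level only. *Nxph4* was near the floor, at means of 0.41, 3.65 and 3.13 CPM in the same order.

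*Grid1*, whose protein binds cerebellins, was higher in MGE-interneuron-like nuclei by 1.60 (SE 0.12, edgeR adjusted p = 2.58e-09). *Mdga1*, whose protein blocks neuroligins from binding neurexins, was lower by −3.48 (SE 0.28, edgeR adjusted p = 2.41e-08), at 2.85, 9.81, 9.77 and 19.97 CPM against 145, 79.0, 89.8 and 95.6 CPM in deep-layer-like nuclei. *Igsf21*, another neurexin ligand, was lower by −2.09 (SE 0.27, edgeR adjusted p = 8.53e-06). In the phosphatase list 3 of the 11 genes tested were higher and 7 lower. In the other contrasts the same 29 partners gave 18 higher and 4 lower for upper-layer-like against radial-glia-like (32.3% and 36.0% of all genes) and 6 and 9 for IPC-like against radial-glia-like (18.7% and 23.6%). They gave 2 and 12 for upper-layer-like against deep-layer-like (16.9% and 20.5%) and 6 and 3 for MGE against CGE nuclei (5.90% and 6.51%). The 11 phosphatase-list genes tested gave 8 and 1, 4 and 4, 1 and 8, and 1 and 4 in the same order. The median log2 difference of the partners was 0.13, 1.22, −0.02, −0.18 and 0.14 in the 5 contrasts, with MGE against excitatory first.

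**Figure D4:**
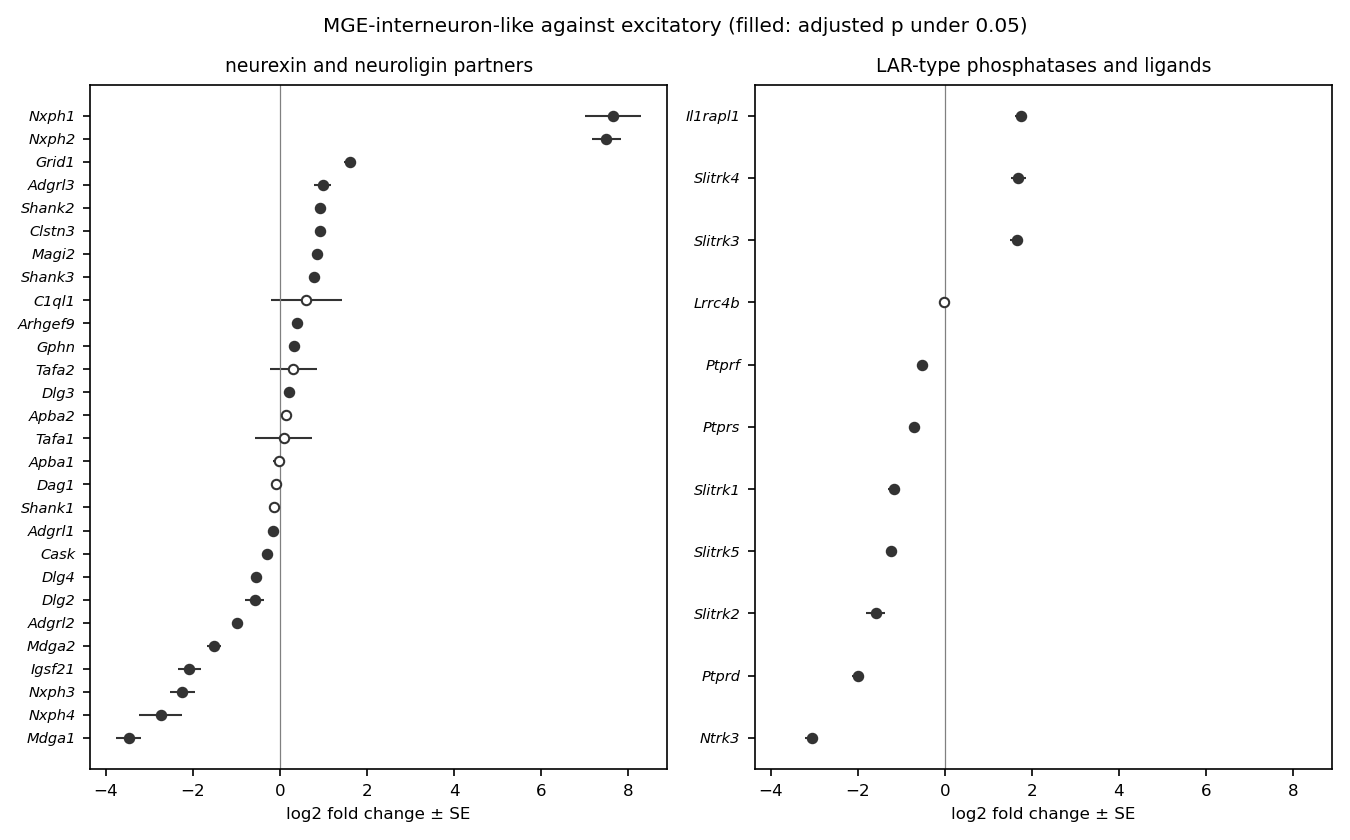
Log2 fold change ± SE (horizontal axis) of the partner genes (left, 28 shown of 29 tested) and of the LAR-type phosphatases and their ligands (right, 11 tested) in MGE-interneuron-like against excitatory nuclei, with filled points where the edgeR adjusted p was under 0.05. *Nxph1* at 7.65 and *Nxph2* at 7.50 lie apart from all others.

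Dnmt1 KO and Control libraries were then compared for the same genes. The study sequenced these nuclei to compare interactions of interneurons with progenitors, and the generation of postmitotic neurons, between genotypes. No gene described here passed the test by edgeR in any of 8 populations, and none had an unadjusted p under 0.05. Nor did any other gene pass, so the share called was 0% of the 21516, 7219, 12109, 9041, 13665, 11037, 14125 and 15635 genes tested in all retained, *Sst*+/*Gad2*+, MGE-interneuron-like, CGE-interneuron-like, radial-glia-like, IPC-like, upper-layer-like and, last, deep-layer-like nuclei. At an unadjusted p under 0.05 the counts of genes were 1615, 222, 803, 231, 649, 554, 424 and 878 in the same order, and DESeq2 called 199, 0, 3, 0, 6, 3, 2 and 7 genes, of which 0 are described here. With 2 libraries a group, the smallest p an exact permutation test can give is 0.33.

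In MGE-interneuron-like nuclei, the class that holds the cells targeted by *Sst-Cre*, *Lrrtm1* had the lowest unadjusted p. Its level was 9.35 and 9.81 CPM in the KO and 11.9 and 16.3 CPM in the Control libraries, which did not overlap, and the log2 difference was −0.49 (SE 0.25, edgeR adjusted p = 0.77). These levels lay below those of barcodes under 100 transcripts in every library, and the part of loose RNA in them was not tested. Within batch 1, where Control replicate 1 is the only Control library, the log2 difference was −0.25. *Nlgn1*, with Dnmt1 KO replicate 1 at 548 CPM below the other 3 libraries, changed by −0.30 (SE 0.35, edgeR adjusted p = 0.90), and within batch 1 by −0.16. Without Dnmt1 KO replicate 2, so that 1 KO library was compared with 2 Control libraries, the *Nlgn1* value became −0.80 and passed the test, and without Dnmt1 KO replicate 1 it was 0.07.

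The change of *Nrxn3* in MGE-interneuron-like nuclei was 0.03 (SE 0.14, edgeR adjusted p = 0.97), with a 95% interval from −0.25 to 0.31, and 0.00 within batch 1. The value was −0.03 with total counts and −0.10 with gene-span offsets. *Nrxn2* was at −0.06 (SE 0.12, edgeR adjusted p = 0.94) and 0.05 within batch 1. *Nlgn2* stood at −0.02 (SE 0.14, edgeR adjusted p = 0.99), 0.11 within batch 1 and 0.07 with gene-span offsets, and *Nlgn3* at 0.07 (SE 0.14, edgeR adjusted p = 0.95) and 0.12 within batch 1. *Lrrtm3* was at 0.36 (SE 0.50, edgeR adjusted p = 0.92) and 0.00 within batch 1. *Lrrtm4* was at 0.09 (SE 0.18, edgeR adjusted p = 0.95), −0.09 within batch 1 and −0.03 with gene-span offsets. *Cbln2* did not pass the filter on low counts in this class. Of the 8 genes tested 4 were higher and 4 lower, with a median of 0.01 against −0.01 over all genes.

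**Figure D5:**
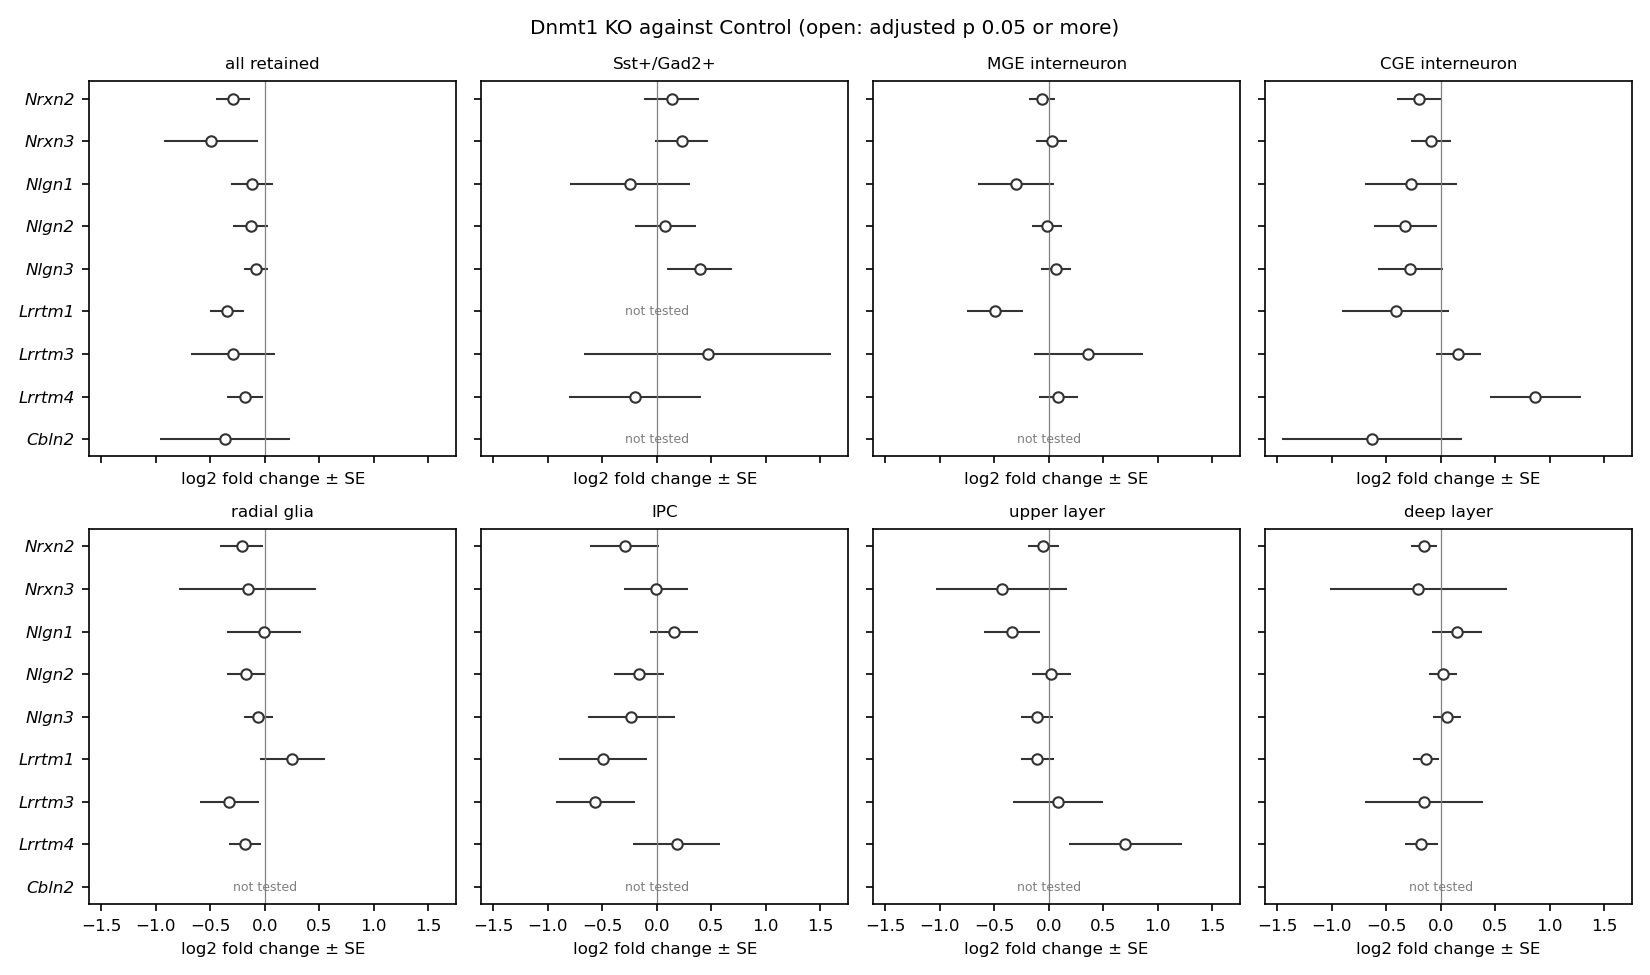
Log2 fold change ± SE of Dnmt1 KO against Control (horizontal axis) for each gene in 8 populations, with open points because every adjusted p was 0.05 or more. Of the 65 points, those farthest from 0 are *Lrrtm4* at 0.87 in CGE-interneuron-like and 0.70 in upper-layer-like nuclei.

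Values for 2 genes in other populations came from libraries that did not overlap between genotypes and differed by at least 0.5. In CGE-interneuron-like nuclei *Lrrtm4* had 2004 and 873 CPM in the KO and 698 and 869.8 CPM in Control, and the change was 0.87 (SE 0.42, edgeR adjusted p = 1.00) and 1.06 within batch 1. Dnmt1 KO replicate 1 decided this value, with 22 nuclei in the class, and without it the change was 0.19. The other libraries lay below their *Lrrtm4* level in barcodes under 100 transcripts. In IPC-like nuclei *Lrrtm3* had 16.2 and 36.0 CPM in the KO and 41.3 and 39.2 CPM in the Control libraries, a change of −0.56 (SE 0.36, edgeR adjusted p = 0.87) and −0.61 within batch 1. Leaving out doublets lowered it to 8.91, 27.5, 8.57 and 7.84 CPM and turned the change to 1.20, so the direction depended on the doublet calls. Barcodes under 100 transcripts held 288, 323, 346 and 168 CPM of *Lrrtm3*, above the IPC-like level in every library. The part of loose RNA in these *Lrrtm3* and *Lrrtm4* levels was not tested.

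Counted over populations, 15 of the 65 tested pairs of a gene and a population did not overlap between genotypes. In all retained nuclei 2 of 9 genes did not overlap, against 40.1% of all genes tested, and in *Sst*+/*Gad2*+ nuclei 1 of 7, against 33.5%. In MGE-interneuron-like nuclei it was 1 of 8, against 38.3%, in CGE-interneuron-like nuclei 5 of 9, against 31.4%, and in radial-glia-like nuclei 0 of 8, against 35.3%. IPC-like nuclei gave 2 of 8, against 37.3%, upper-layer-like nuclei 1 of 8, against 34.1%, and deep-layer-like nuclei 3 of 8, against 37.8%. All 9 genes had a lower fitted level in the KO libraries in all retained nuclei, from −0.49 to −0.08, with a median of −0.29 against −0.01 over all genes, and none passed the test. There *Nrxn3* had 1886, 3525, 4977 and 2602 CPM, and MGE-interneuron-like nuclei made up 3.79%, 5.92%, 6.78% and 6.06% of the libraries, while striatal-like nuclei, all of which held *Nrxn3* transcripts, numbered 222 in Control replicate 1. Other class shares also differed, such as 4.38% and 9.49% upper-layer-like nuclei in the KO and 11.7% and 19.9% in the Control libraries. For hippocampal-granule-lineage-like nuclei they were 12.4% and 7.68% against 4.37% and 3.26%. The part of class makeup in the values of all retained nuclei was not tested. In bulk-like sums fewer cells of a type and less RNA per cell cannot be told apart.

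Whether genotype acted differently in MGE-interneuron-like than in excitatory nuclei was tested as an interaction. None of the 9 genes and 0% of 15242 genes passed by edgeR, and 437 genes had an unadjusted p under 0.05. *Lrrtm1* had the lowest p of the genes described, with an interaction of −0.37 (SE 0.19, edgeR adjusted p = 1.00), which rests on the same MGE levels below those of barcodes under 100 transcripts. *Nrxn3* had 0.45 (SE 0.54) and *Nlgn1* −0.31 (SE 0.39), each with an edgeR adjusted p of 1.00. None of the partner and phosphatase genes passed by genotype in any population or in the interaction by edgeR. At an unadjusted p under 0.05 the partners gave 0 of 33, 2 of 26, 6 of 26, 2 of 26, 1 of 27, 1 of 27, 0 of 28 and 1 of 31 genes in the 8 populations in the order above. In MGE-interneuron-like nuclei that is 23.1% of the partners beside 6.63% of all genes, with a median log2 change of 0.22 beside −0.01, and none of them passed the test. The phosphatase list gave 0 of 11 there, with a median of 0.13. Genes spanning 100 kb or more held 67.6% and 67.8% of transcripts in the KO and 66.6% and 66.2% in the Control libraries of this class. The part of gene span in the partner share was not tested.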

How the data were processed

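Nuclei of 2 Dnmt1 KO and 2 Control medial neocortices were profiled with a combinatorial-barcoding kit. The authors aligned reads to GRCm39 (mm39) and deposited transcript counts per gene and barcode for each library, not normalized, with transcript, read and gene counts per barcode. How introns and strand were counted is not given in the sources used here. Per the submitters' processing notes, R 4.4.1 and Seurat 5.0.1.9001 were used. Nuclei were barcodes of 1500 to 60000 transcripts, and a mitochondrial limit of 10% removed none. Nuclei were gated by mean marker z-score (over 0.5, margin 0.25, at least 2 markers detected), and scrublet calls of doublets, made library by library, were used only as an alternative. Gene positions came from the GENCODE annotation of GRCm39.

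Counts were summed per library and class and tested with edgeR 4.0.16 in R 4.3.3 (TMM scaling, filterByExpr, quasi-likelihood, robust), with Benjamini-Hochberg adjustment over all genes. DESeq2 1.42.0 was an alternative. Contrasts between 6 classes were fitted together with library as a term. The genotype fits of MGE-interneuron-like and of all retained nuclei were tried on simulated counts, as was an upper-layer-like against radial-glia-like fit without a library term. The joint fit of 6 classes and the interaction were not tried in this way. CPM are per 1e6 transcripts of the summed nuclei. Intervals are ±1.96 SE, a nominal 95% that can be narrower than the test allows with so few libraries. For *Lrrtm1* by genotype in all retained nuclei the interval ran from −0.65 to −0.04 at an unadjusted edgeR p of 0.079. The replicate numbers come from the labels and did not pair libraries (r = −0.06 across genes between deviations of same-numbered libraries). The genes and lists were chosen with earlier results of these data known. Fold changes were named for all genes in MGE-interneuron-like nuclei, and elsewhere for an unadjusted p under 0.05 or for groups that did not overlap and differed by at least 0.5. Partners were named as the 4 highest and 4 lowest among those called in MGE-interneuron-like against excitatory nuclei. Some items these rules select are not reported here. Alternatives were other scalings, no filter, each library left out, a replicate block, a filter on mapped reads, doublets left out, Leiden clusters and gene-span offsets.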

Additional observations from a re-analysis of the deposited data

Results flagged for a closer look

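*Lrrtm3* levels lay on opposite sides by genotype in 2 classes, with both Dnmt1 KO libraries above both Control libraries in CGE-interneuron-like nuclei and below them in IPC-like nuclei. The log2 fold changes differed by 0.72, and the difference was not tested. With doublets left out the opposition was gone: the CGE levels overlapped, at 128 and 114 CPM in the KO and 71.7 and 122 CPM in the Control libraries, and the IPC-like change turned to 1.20. For *Lrrtm4* the same held, with both KO libraries above both Control libraries in CGE-interneuron-like nuclei and below them in deep-layer-like nuclei, a difference of 1.05 that was not tested either. It rests on Dnmt1 KO replicate 1, which had 22 CGE-interneuron-like nuclei: KO replicate 2 had 873 CPM and Control replicate 2 869.8 CPM, and without KO replicate 1 the CGE change fell from 0.87 to 0.19.

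Barcodes under 100 transcripts, which enter no comparison, held transcripts of all 9 genes. Summed over the 4 libraries they had 4001 CPM of *Nlgn1*, 3770 CPM of *Nrxn3*, 1442 CPM of *Lrrtm4*, 292 CPM of *Lrrtm3*, 168 CPM of *Nrxn2*, 48.4 CPM of *Nlgn2*, 41.9 CPM of *Nlgn3*, 16.6 CPM of *Lrrtm1* and 1.64 CPM of *Cbln2*.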

How the results depend on the processing

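Calls of the genes by genotype stayed at 0 in all 8 populations with DESeq2, scaling by total counts, gene-span offsets, the replicate block, the mapped-read filter and doublets left out. Leaving out each library gave 0 to 1 genes in MGE-interneuron-like, 0 to 1 in CGE-interneuron-like and 0 to 2 in upper-layer-like nuclei, each from leaving out Dnmt1 KO replicate 2 (in upper-layer-like nuclei *Lrrtm4* at 1.25 and *Nrxn3* at −1.55), and no filter gave 1 in CGE-interneuron-like nuclei (*Lrrtm4*). Between classes, leaving out libraries gave 5 to 9 genes for MGE-interneuron-like against excitatory nuclei (5 without Dnmt1 KO replicate 2 or Control replicate 1, against 8 with all libraries). For IPC-like against radial-glia-like nuclei it gave 1 to 2 (1 without Dnmt1 KO replicate 2 or Control replicate 2), no filter gave 4 and clustered classes gave 6. The cause was not tested.

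Some small changes by genotype in MGE-interneuron-like nuclei turned sign. *Nrxn3* was at −0.030 (total counts), −0.10 (gene-span offsets), −0.087 (mapped reads) and −0.012 (doublets left out), and −0.042 to 0.11 with libraries left out. *Nlgn1* was at 0.24 (mapped reads) and 0.14 (doublets left out), and −0.80 to 0.070 with libraries left out. *Nlgn2* was at 0.074 (gene-span offsets), 0.0044 (doublets left out) and 0.014 (clustered classes), and −0.13 to 0.11 with libraries left out. *Lrrtm4* was at −0.027 (gene-span offsets). With libraries left out, *Nrxn2* ran from −0.16 to 0.047, *Lrrtm3* from −0.37 to 0.83 and *Lrrtm4* from −0.12 to 0.30. *Lrrtm3* in IPC-like nuclei was at 1.20 (doublets left out) and 0.57 (clustered classes), and *Nrxn3* in IPC-like against radial-glia-like nuclei at −0.051 (clustered classes).

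The replicate block gave 0 genes called in each population, and its value for *Lrrtm1* in MGE-interneuron-like nuclei was −0.52. Same-numbered libraries did not deviate together (r = −0.06), so the block was not used as a pairing. Replicate number cannot be told apart from sex. *Sst*+/*Gad2*+ nuclei numbered 16 to 136 a library, which limits that population.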
